A study of Mus musculus with 6 samples.

Results

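The MYC, MAX and MXD network is a set of transcription factors that compete for shared partners and shared DNA sites. It was followed here in terminally exhausted CD8+ T cells of mouse melanomas. The 10 genes Myc, Max, Mxd1, Mxd3, Mxd4, Mxi1, Mnt, Mlx, Mlxip and Mga were selected by name, after Mxd4 had been chosen by its lower count in IL-10/Fc libraries. All 10 were found among the 15898 genes of the deposited table, and all 10 passed the count filter that left 15477 genes. The values that chose Mxd4 are therefore given as a description, with no test, and the question was whether the other 9 genes matched them.

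In all, 6 libraries were compared, 2 from mice given phosphate-buffered saline (PBS) and 4 from mice given IL-10/Fc, the cytokine interleukin-10 joined to an antibody Fc part. All groups shared the same host and cell background. C57BL/6 mice received 4 Gy of total body irradiation, then naive Thy1.1+ PMEL T cells on a B6.Cg-Thy1a/Cy background with the transgene Tg(TcraTcrb)8Rest/J, whose receptor recognises gp100 of melanocytes, and then B16F10 melanoma cells. On day 10 both groups were given activated Thy1.2+ PMEL CD8+ T cells, and 4 injections near the tumour were begun, of PBS or of 20 µg IL-10/Fc. On day 18, Thy1.1+ CD8+ cells with the exhaustion receptors PD-1 and TIM-3 were sorted at 500 cells per library. The donor T cells carried the receptor transgene, and the hosts had also received the Thy1.2+ cells, which the Thy1.1 gate leaves out. Whether each library came from its own mouse is not given in the labels, so the spread between libraries may be technical in part.

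MYC forms a pair with MAX, binds the E-box sequence CACGTG and activates genes of growth and ribosome production. The MXD proteins (encoded by Mxd1, Mxi1, Mxd3 and Mxd4), MNT and MGA also pair with MAX and occupy the same sites, where MXD proteins and MNT bring in SIN3 and histone deacetylases and repress. MLX is a second hub, which pairs with the glucose-responsive factor MLXIP (MondoA) and with some MXD proteins and MNT. In T cells, MYC is induced on activation, and MXD proteins are associated with differentiation and leaving the cell cycle.

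Some of the network's own promoters carry the site that its proteins bind, and promoter windows are shown for that reason. Windows of 300 bases, from 250 before to 50 after the annotated start, were matched in RefSeq (GRCm38.p6, the build of the deposited coordinates) for 9 of the 10 genes, all but Myc. The E-box CACGTG, which reads the same on both strands, was in 4 of the 11 windows of these 9 genes. These were windows of the 4 genes Mxd4, Mnt, Mlx and Max. Of the 32851 windows of all genes, 7.15% held it. Capitals mark the E-box. The windows of Mxd4 (chr5:34187661-34187960, minus strand) and Mxd1 (chr6:86669110-86669409, minus strand) are given whole, since these 2 genes differed most between the groups and in opposite directions. For Mnt (chr11:74830785-74830822, plus strand), Mlx (chr11:101087234-101087271, plus strand) and Max (chr12:76962230-76962267, minus strand) the 38 bases around the E-box are given, 5′ to 3′ on the gene's strand.
Mxd4: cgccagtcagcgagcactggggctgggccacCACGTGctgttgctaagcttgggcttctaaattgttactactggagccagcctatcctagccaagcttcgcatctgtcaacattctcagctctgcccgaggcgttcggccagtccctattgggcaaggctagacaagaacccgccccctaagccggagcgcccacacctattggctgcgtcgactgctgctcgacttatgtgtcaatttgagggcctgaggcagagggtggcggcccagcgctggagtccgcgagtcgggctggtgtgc
Mxd1: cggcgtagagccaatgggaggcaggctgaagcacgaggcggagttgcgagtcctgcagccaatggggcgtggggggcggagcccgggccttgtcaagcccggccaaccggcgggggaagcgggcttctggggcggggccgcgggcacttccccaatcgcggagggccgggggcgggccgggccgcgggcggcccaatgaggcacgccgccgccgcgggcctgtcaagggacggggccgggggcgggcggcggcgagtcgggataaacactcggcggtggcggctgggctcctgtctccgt
Mnt: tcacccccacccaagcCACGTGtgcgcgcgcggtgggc
Mlx: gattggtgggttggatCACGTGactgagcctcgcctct
Max: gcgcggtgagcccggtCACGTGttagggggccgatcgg

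The E-box began 219 bases before the start of Mxd4, 123 before that of Mnt, 40 before that of Mlx and 3 before that of Max. Mxd1 had none, and its window was richer in G and C (76.7%) than that of Mxd4 (61.0%). The STAT core TTCNNNGAA, searched on both strands, was in none of the members' windows and in 8.30% of all windows. The forkhead motif GTAAACA, on either strand, was in 1 window of Mxi1 and in 3.65% of all windows. These matches describe letters in a window and were not tested against binding.

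Only 2 PBS libraries entered every comparison, and they differed from each other. Depth was 26738871 to 36941814 counts per library, and no 2 replicates agreed within sampling noise. PBS replicate 1 stood apart in T cell genes. Ccr7, a homing receptor of naive and memory cells, was at 4010 CPM (counts per 1000000 counts of the library, after TMM scaling) there, at 548 CPM in PBS replicate 2 and at 108 to 232 CPM in IL-10/Fc. Summed over 12 markers of CD8 T cells and exhaustion, the level was 7393 CPM in PBS replicate 1, 11394 in PBS replicate 2 and 13545 to 15228 in IL-10/Fc. Cd8a itself was at 910 and 2292 CPM in PBS and at 2896 to 3161 CPM in IL-10/Fc, so the labelled cell type was present in every library. Which receptor each library held was not tested, and receptor segments differed between libraries. Trbv16, a beta chain segment named here after its values were seen, was at 0.102 and 0.131 CPM in PBS and at 0.838, 9.98, 110 and 20.6 CPM in IL-10/Fc replicates 1 to 4. Of the 2 sorted receptors, Pdcd1 (PD-1) was at 1578 and 1286 CPM in PBS and at 700 to 1112 CPM in IL-10/Fc, lower without overlap, and Havcr2 (TIM-3) at 200 and 189 CPM in PBS and at 161 to 312 CPM in IL-10/Fc. Of the 12 markers, 9 had a higher and 3 a lower estimate. Cd4 and Foxp3 were not among the genes of the deposited table, so no level can be given for them.

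Mxd4 encodes an MXD repressor that is typical of differentiated cells. It stood at 59.6 and 53.8 CPM in PBS and at 21.5, 29.0, 22.8 and 25.4 CPM in IL-10/Fc replicates 1 to 4. Both PBS libraries were above all 4 IL-10/Fc libraries, and the PBS pair differed by only 1.11-fold. The means were 56.7 ± 4.12 CPM (SD, n = 2) with PBS against 24.7 ± 3.31 CPM (SD, n = 4), a level 2.30-fold lower with IL-10/Fc (log2 fold change -1.20, SE 0.17). Leaving out each library in turn moved this value between -1.29 and -1.12. The gene (ENSMUSG00000037235, chromosome 5, 34173883 to 34187720) shares 514 exon bases with the antisense gene Gm42846. The libraries do not mark strand, so reads of this stretch cannot be assigned to either. The same holds for 105 exon bases that Mxd3 shares with Prelid1, 194 that Mxi1 shares with Gm10197 and 267 that Mlxip shares with Gm15747, each on the opposite strand.

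Mxd1 (ENSMUSG00000001156, chromosome 6, 86647042 to 86669161) encodes the founding MXD protein, which is induced as cells differentiate and competes with MYC for MAX. It did not match Mxd4: it stood at 120 and 300 CPM in PBS and at 388, 581, 666 and 527 CPM in IL-10/Fc replicates 1 to 4. Again the groups did not overlap, but here IL-10/Fc was the higher group, and the gap between PBS replicate 2 and IL-10/Fc replicate 1 was smaller than that within the PBS pair. The means were 210 ± 127 CPM (SD, n = 2) with PBS against 540 ± 117 CPM (SD, n = 4), 2.58-fold higher with IL-10/Fc (log2 fold change 1.37, SE 0.40). By edgeR's quasi-likelihood test (Benjamini-Hochberg adjusted) over all genes it was not called (adjusted p = 0.281), whereas the DESeq2 Wald test on the same counts called it (adjusted p = 0.00432), as it did 3.33% of all genes on the higher side. Its log2 fold change was 0.85 without PBS replicate 1 and 2.18 without PBS replicate 2, so the direction held and the size depended on which PBS library was used.

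Marker sums of CD8 T cells and of other cells also differed between the libraries, only in part in the order of Mxd1. The CD8 T cell marker sum given above was lowest in PBS replicate 1, where Mxd1 was lowest too. Of 18 macrophage and monocyte markers, 15 had a higher estimate in IL-10/Fc (83.3%, against 49.3% of all genes tested). Their summed level was 612 and 1065 CPM in PBS, against 983, 1163, 1660 and 1745 CPM in IL-10/Fc replicates 1 to 4. By edgeR none was called, and 5 higher passed at an unadjusted p under 0.05, where 7.20% of all genes did. Without overlap, 6 were higher and 0 lower, where 12.1% and 11.5% of all genes were. The authors' deposited table called 5 higher (Cd68, Fcer1g, Ms4a7, Itgam and Mrc1), as it did 3.57% of all listed genes. Fcer1g was at 34.4 and 40.7 CPM in PBS and at 84.6 to 375 CPM in IL-10/Fc. C1qb was at 21.2 and 13.8 CPM in PBS and at 12.3, 44.0, 98.3 and 129 CPM in IL-10/Fc replicates 1 to 4. Among the defining markers, Csf1r was at 3.77 and 0.523 CPM in PBS and at 2.41, 7.95, 18.8 and 6.27 CPM in IL-10/Fc. C1qa was at 5.71 and 4.48 CPM in PBS and at 3.55 to 15.8 CPM in IL-10/Fc. Adgre1 was at 1.12 and 2.91 CPM in PBS and at 1.37 to 8.41 CPM in IL-10/Fc. The groups overlapped for C1qb, Csf1r, C1qa and Adgre1. Lyz2 went otherwise, highest in PBS replicate 2 (301 CPM) and lowest in IL-10/Fc replicate 1 (32.1 CPM). Of 7 dendritic cell and MHC class II markers tested, 5 had a higher and 2 a lower estimate. Their summed level was 228 and 310 CPM in PBS, against 172, 651, 1915 and 1011 CPM in IL-10/Fc replicates 1 to 4. It was highest in the library with the highest Mxd1. It was lowest in IL-10/Fc replicate 1, although Mxd1 there was above both PBS libraries. Single genes went in different directions. Zbtb46 was at 61.0 and 23.3 CPM in PBS and at 4.76 to 21.7 CPM in IL-10/Fc, lower without overlap. H2-Aa was at 21.2 and 43.1 CPM in PBS and at 23.7, 131, 425 and 213 CPM in IL-10/Fc, with overlap. The part of these cells in the Mxd1 level was not tested. In bulk libraries fewer cells of a type and less RNA per cell cannot be told apart.

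**Figure D1:**
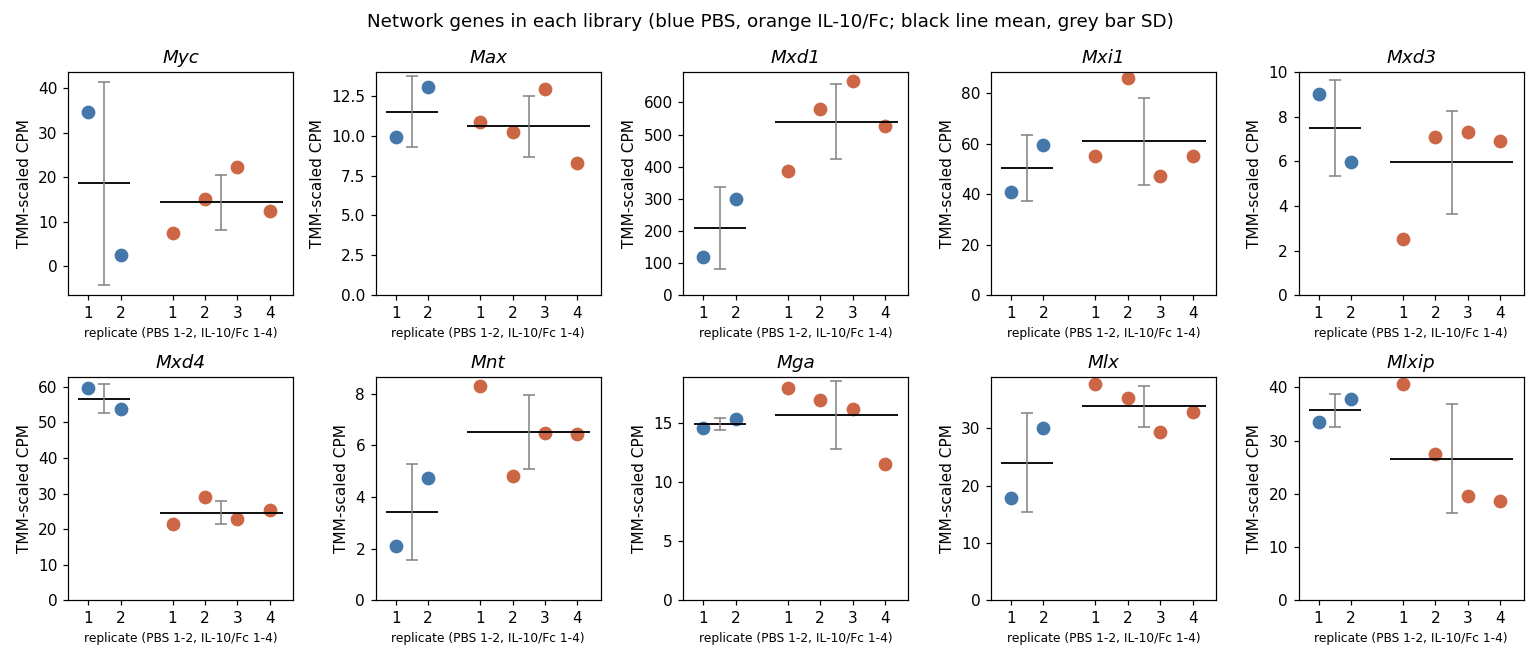
TMM-scaled CPM of the 10 network genes in each library, on linear axes that start at 0 except where the SD bar of Myc reaches lower. Points are libraries (blue PBS, orange IL-10/Fc), black lines group means and grey bars the SD. Mxd4 is lower and Mxd1 higher in all 4 IL-10/Fc libraries, and the PBS points of Myc lie at 34.7 and 2.52 CPM.

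The other 2 MXD genes did not follow Mxd4 either. Mxi1, an MXD repressor also linked to low oxygen, stood at 40.9 and 59.6 CPM in PBS and at 55.2, 85.9, 47.0 and 55.2 CPM in IL-10/Fc replicates 1 to 4. The groups overlapped, and its log2 fold change was 0.28 (SE 0.29; edgeR quasi-likelihood test, Benjamini-Hochberg adjusted, adjusted p = 0.77). It was 0.03 without PBS replicate 1, 0.57 without PBS replicate 2 and 0.06 without IL-10/Fc replicate 2. Mxd3, which unlike its relatives is expressed in S phase of cycling cells, was at 9.04 and 5.98 CPM in PBS and at 2.51, 7.08, 7.31 and 6.93 CPM in IL-10/Fc. IL-10/Fc replicate 1 was the lowest, and the other libraries overlapped. The log2 fold change of Mxd3 was -0.33 (SE 0.49). It was -0.01 without PBS replicate 1, -0.60 without PBS replicate 2 and -0.08 without IL-10/Fc replicate 1.

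Set per length of exon, the MXD genes took different shares of the family in the 2 groups. Mxd1 took 50.1% and 70.7% of the summed MXD level (TMM-scaled CPM per kb of exon) in the PBS libraries and 81.2% to 88.1% in the IL-10/Fc libraries. Mxd4 took 20.8% and 10.6% in PBS, against 2.52% to 3.81% in IL-10/Fc. The share of Mxi1 was 17.8% and 14.6% in PBS, against 6.45% to 12.5% in IL-10/Fc, although its own level was not lower. For Mxd3 the share was 11.3% and 4.21% in PBS, against 1.59% to 3.30% in IL-10/Fc. Between the groups none of the 4 shares overlapped. The shares do not depend on how libraries are scaled, but they do on length: on counts in place of length-scaled levels the mean share of Mxd3 was 2.69% in PBS and 0.915% in IL-10/Fc, where it was 7.76% and 2.68% per length. In such a closed sum a larger share of Mxd1 lowers the others, and for Mxd3 and Mxi1 the levels themselves overlapped. The shares contain Mxd4 and were not tested.

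The ratio of Mxd1 to Mxd4 per length was 2.41 and 6.68 in PBS, against 21.6 to 35.0 in IL-10/Fc. The whole MXD sum was 33.8 and 60.0 CPM per kb in PBS, against 66.5, 101, 107 and 88.5 CPM per kb in IL-10/Fc replicates 1 to 4. Without Mxd1 the remaining sum was 16.8 and 17.6 CPM per kb in PBS, against 11.7 to 19.0 CPM per kb in IL-10/Fc, and these ranges overlapped. The lower Mxd4 thus lay inside a family sum that was not lower, and in which Mxd1 held the largest share in every library.

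**Figure D2:**
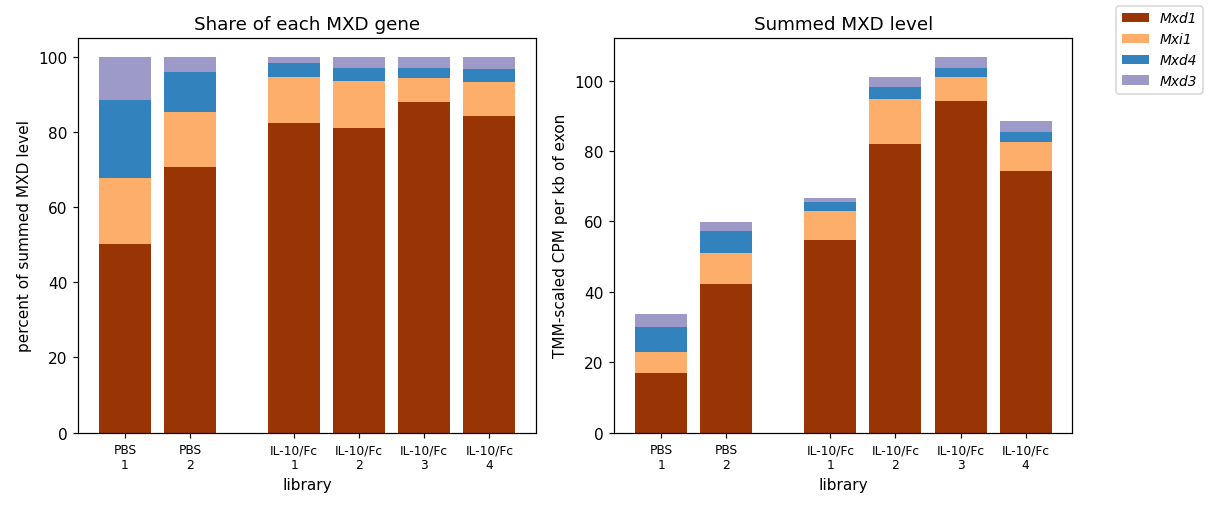
Left, the percent of the summed length-scaled MXD level held by each of the 4 MXD genes in each library. Right, the same levels stacked in TMM-scaled CPM per kb of exon. Mxd1 fills 50.1% and 70.7% of the PBS bars and at least 81.2% of each IL-10/Fc bar, while the Mxd4 band narrows to at most 3.81%.

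Myc (ENSMUSG00000022346, chromosome 15, 61985391 to 61990374), the activating partner of MAX, could not be compared at this replication. It stood at 34.7 CPM (1023 counts) in PBS replicate 1 and at 2.52 CPM (77 counts) in PBS replicate 2, a 13.8-fold difference within 1 group. The IL-10/Fc libraries lay between them, at 7.51, 15.2, 22.3 and 12.4 CPM. The log2 fold change was -0.38 (SE 0.91), with an adjusted p = 0.924 by edgeR's quasi-likelihood test (Benjamini-Hochberg adjusted). It was 2.51 without PBS replicate 1 and -1.28 without PBS replicate 2, so the direction was decided by which PBS library was kept. The library with the highest Myc was also the one with the highest Ccr7, and its level of Slamf6, a marker of less differentiated exhausted cells, was 159 CPM against 9.70 to 26.6 CPM in the other 5. The part of such cells in the Myc level was not tested.

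**Figure D3:**
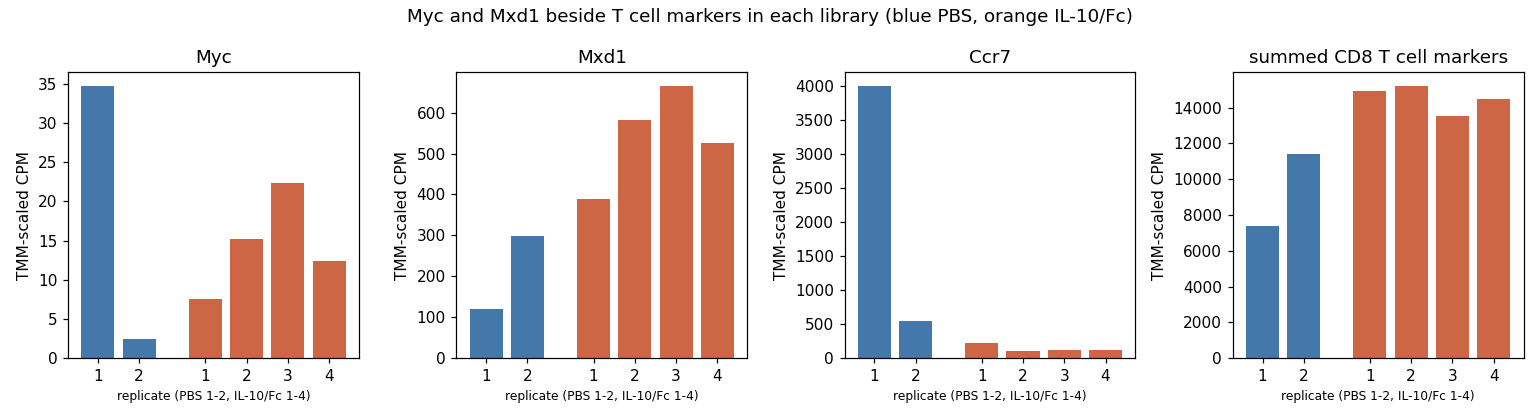
Bars give TMM-scaled CPM in each library (blue PBS, orange IL-10/Fc) for Myc, Mxd1, Ccr7 and the sum of 12 CD8 T cell and exhaustion markers. PBS replicate 1 has the highest Myc (34.7) and Ccr7 (4010) and the lowest Mxd1 (120) and marker sum (7393) of the 6 libraries.

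Max, the common partner, was among the steadier members. It stood at 9.95 and 13.1 CPM in PBS and at 10.9, 10.3, 13.0 and 8.29 CPM in IL-10/Fc replicates 1 to 4, with overlap. Its log2 fold change was -0.12 (SE 0.27). Mga, a large MAX partner that also belongs to the Polycomb complex PRC1.6, was at 14.6 and 15.3 CPM in PBS and at 18.0, 17.0, 16.2 and 11.5 CPM in IL-10/Fc (log2 fold change 0.07, SE 0.24, and -0.10 with scaling by library size only). Neither was called, with an adjusted p = 0.915 for Max and 0.949 for Mga by edgeR's quasi-likelihood test. The SE of each exceeds its estimate, so neither a difference nor equality of the groups was shown.

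Mnt, the widely expressed MAX-bound repressor, was at 2.11 and 4.74 CPM in PBS and at 8.31, 4.81, 6.48 and 6.44 CPM in IL-10/Fc replicates 1 to 4. The groups did not overlap, by the small gap between PBS replicate 2 and IL-10/Fc replicate 2. Its log2 fold change was 0.93 (SE 0.44), and the gene was not called (adjusted p = 0.455, edgeR quasi-likelihood test). Its counts were low, from 62 in PBS replicate 1 to 248 in IL-10/Fc replicate 1, and the log2 fold change was 0.46 without PBS replicate 1 and 1.63 without PBS replicate 2. As with Mxd1, the estimate was positive in each of these fits.

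The MLX arm was mixed. Mlx stood at 17.9 and 30.1 CPM in PBS and at 37.8, 35.3, 29.3 and 32.8 CPM in IL-10/Fc replicates 1 to 4, with a log2 fold change of 0.50 (SE 0.25). Without PBS replicate 1 it was 0.17, and without PBS replicate 2 it was 0.92. Mlxip, which moves to the nucleus when glucose phosphates build up, stood at 33.5 and 37.8 CPM in PBS and at 40.7, 27.5, 19.5 and 18.7 CPM in IL-10/Fc (log2 fold change -0.42, SE 0.34). IL-10/Fc replicates 2 to 4 were below both PBS libraries, and replicate 1 was above them. The ratio of Mlxip to Mlx per length was 0.450 and 0.302 in PBS, against 0.137 to 0.259 in IL-10/Fc, with no overlap. Mlx shares 385 exon bases with Psmc3ip on the opposite strand, so part of its counts cannot be assigned. Neither gene was called by edgeR's quasi-likelihood test (adjusted p = 0.477 for Mlx and 0.686 for Mlxip).

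**Figure D4:**
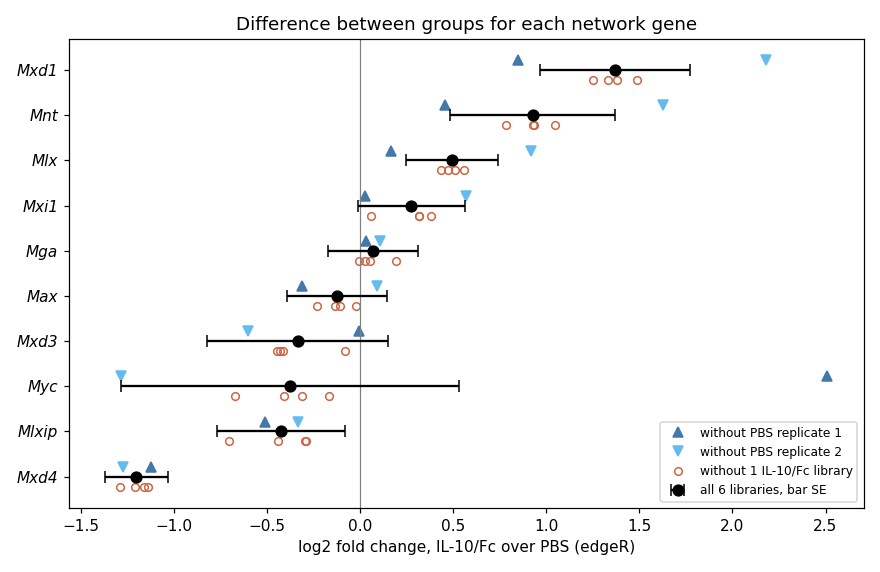
Log2 fold change of IL-10/Fc over PBS for each network gene by edgeR, with the SE as a bar (black), and the same after leaving out PBS replicate 1 or 2 (triangles) or 1 IL-10/Fc library (open circles). Mxd4 keeps between -1.29 and -1.12, while Myc runs from -1.28 to 2.51.

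Counted over the network, the answer to whether Mxd4 was matched was as follows. Of the other 9 genes, 4 (Myc, Max, Mxd3 and Mlxip) had an estimate below 0, each with groups that overlapped, and 5 (Mxd1, Mnt, Mlx, Mxi1 and Mga) had one above 0. Groups without overlap were seen for 2 members on the higher side, Mxd1 and Mnt, where 12.1% of all genes tested were so, and for Mxd4 alone on the lower side, where 11.5% were. By edgeR's quasi-likelihood test none of the 9 was called at an adjusted p under 0.05, where 1 gene of all 15477 (0.00646%) was. At an unadjusted p under 0.05 the test passed 1 of the 9, Mxd1, where 7.20% of all genes passed on the higher and 5.52% on the lower side. In the authors' deposited table Mxd1 was called higher (adjusted p = 0.00837), as were 3.57% of all listed genes, and Mxd4 lower, as were 1.72%. The rule that chose the members used this contrast, so these counts describe the members and nothing is read from them.

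Per length of exon the order of levels was as follows. In PBS, Mxd1 led at a mean of 29.6 CPM per kb, followed by Mlx at 12.0, and these 2 did not overlap. Mxi1 (7.36), Myc (6.86) and Mxd4 (6.68) came next, Mxi1 overlapping with Myc and Myc with Mxd4, but Mxd4 not with the next gene. Mlxip followed at 4.28, Max at 3.20 and Mxd3 at 3.17, with Mga (0.974) and Mnt (0.740) last. In IL-10/Fc, Mxd1 was at 76.4 and Mlx at 16.9 CPM per kb, again without overlap, and Mxi1 at 8.92. From Mxi1 downward each gene overlapped with the next. Mxd4, at 2.91 CPM per kb, came after Max (2.94) there, whereas in PBS both its libraries were above those of Max.

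The genes most like Mxd4 over the 6 libraries were named by the Pearson correlation of log2 CPM among 4625 genes with a mean of at least 20 CPM, as a description that shares the libraries and the group difference with Mxd4. The 5 closest were Rrp1 (0.990), Rpl3 (0.984), Rpn2 (0.979), Tspan3 (0.979) and Maea (0.979). Rrp1, a factor of ribosome assembly, stood at 148 and 140 CPM in PBS and at 86.4, 104, 88.9 and 87.0 CPM in IL-10/Fc. Rpl3, a protein of the large ribosomal subunit, stood at 799 and 824 CPM in PBS and at 553 to 592 CPM in IL-10/Fc. Tspan3, a tetraspanin, was at 203 and 156 CPM in PBS and at 45.0 to 94.3 CPM in IL-10/Fc. In each of these 3 genes both PBS libraries were above all IL-10/Fc libraries.

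Genes around the network were described by lists. Of 93 genes widely reported as activated by MYC, 64 had a lower and 29 a higher estimate in IL-10/Fc (68.8% lower, against 50.7% of all genes tested), with a median log2 fold change of -0.19 beside -0.01 for all genes. None was called in either direction by edgeR's quasi-likelihood test (Benjamini-Hochberg adjusted). At an unadjusted p under 0.05, 19 lower and 6 higher passed, where 5.52% and 7.20% of all genes tested did. The authors' deposited table called 6 of them lower (Npm1, Ppat, Gart, Impdh2, Phgdh and Rcc1) and 3 higher (Hk2, Tfrc and Cycs). Of all listed genes it called 1.72% lower and 3.57% higher. Without overlap between the groups, 24 were lower and 7 higher, where 11.5% and 12.1% of all genes tested were. The 4 with the smallest p were Phgdh, of serine synthesis (96.4 ± 3.94 CPM, SD, n = 2, and 52.8 ± 2.74 CPM, SD, n = 4), Impdh2, of guanine nucleotide synthesis (125 ± 7.30 and 71.6 ± 9.82 CPM), Gart, of purine synthesis (38.8 ± 0.820 and 21.1 ± 3.25 CPM), and the nucleolar gene Npm1 (603 ± 14.5 and 481 ± 15.1 CPM). These 4 were named for their small p, so their separation is no further evidence, and their adjusted p by edgeR ran from 0.148 to 0.215. The median came to -0.06 when PBS replicate 2 was left out. The shares of all genes given here also apply as background to the lists below.

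The level of this list was set beside Myc in each library. Its mean log2 CPM (with 0.5 added) was 5.68 in PBS replicate 1, where Myc was highest, and 5.87 in PBS replicate 2, where Myc was lowest. It was 5.61, 5.53, 5.66 and 5.55 in IL-10/Fc replicates 1 to 4, highest in replicate 3, where Myc was the highest of that group. A link of the list to Myc was not tested. Replication and mitosis genes, a list of 40, had a median of -0.37 with 31 lower (77.5%, against 50.7% of all genes tested). By edgeR none was called, and 6 lower and 1 higher passed at an unadjusted p under 0.05, while the authors' deposited table called 1, Mcm5, lower. Their summed level was 3416 and 3395 CPM in PBS, against 2082, 2448, 3690 and 2870 CPM in IL-10/Fc replicates 1 to 4, lowest in the library where Mxd3 was lowest.

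Of 17 genes reported as repressed by MYC, 10 had a lower and 7 a higher estimate, with a median of -0.08 (0.08 without PBS replicate 1 and -0.30 without PBS replicate 2). By edgeR none was called, and 2 lower and 3 higher passed at an unadjusted p under 0.05, while the authors' deposited table called 4, Gadd45g, Itgal and Btg1 higher and Itgb1 lower. The members with the smallest p went in different directions. Itgb1, the integrin beta-1 chain, was at 339 ± 71.9 CPM (SD, n = 2) in PBS against 89.8 ± 20.9 CPM (SD, n = 4) in IL-10/Fc, whereas the growth inhibitor gene Btg1 was at 319 ± 87.6 and 573 ± 78.1 CPM. Gadd45g, a stress-induced gene, stood at 14.8 ± 6.98 and 69.2 ± 27.4 CPM, and the integrin gene Itgal at 199 ± 26.6 and 392 ± 128 CPM. For each of these 4 genes the groups did not overlap, but they were named for their small p, so their separation is no further evidence. Over the list, 3 were higher and 3 lower without overlap.

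The corepressors through which MXD proteins act were listed as 18 genes, 12 lower and 6 higher (66.7% lower, against 50.7% of all genes tested). The median log2 fold change was -0.17 (-0.09 without PBS replicate 1 and -0.04 without PBS replicate 2). By edgeR none was called, and 1 lower and 1 higher passed at an unadjusted p under 0.05, while the authors' deposited table called 1, Ncor1, higher. Ncor1, the scaffold of a nuclear receptor corepressor, was at 70.3 and 75.9 CPM in PBS and at 116, 102, 114 and 99.4 CPM in IL-10/Fc replicates 1 to 4 (log2 fold change 0.56, SE 0.12, adjusted p = 0.193 by edgeR). Rbbp7, a histone-binding subunit of SIN3 complexes, was at 254 ± 23.1 CPM (SD, n = 2) with PBS against 185 ± 29.4 CPM (SD, n = 4), and Suds3, another SIN3 subunit, at 31.4 ± 5.00 and 21.1 ± 4.37 CPM. The summed level of the list was 1330 and 1378 CPM in PBS, against 1204 to 1272 CPM in IL-10/Fc.

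Partners of MGA in PRC1.6 (12 genes) had 9 lower and 3 higher estimates (75.0% lower, against 50.7% of all genes tested). Their median was -0.21 (-0.04 without PBS replicate 2 and -0.42 without PBS replicate 1). By edgeR none was called, and 1 lower passed at an unadjusted p under 0.05, while the authors' deposited table called 1, Rnf2, lower. Rnf2, the E3 ligase of Polycomb complexes, was at 43.1 and 37.2 CPM in PBS and at 25.6, 20.2, 26.7 and 24.4 CPM in IL-10/Fc, with no overlap. This gene was named for its small p, and over the list 3 were lower and 0 higher without overlap. Coactivators of MYC (16 genes) were split into 8 and 8, with a median of -0.02 that changed sign with the PBS library kept (-0.26 without replicate 1 and 0.17 without replicate 2). Enzymes that set MYC protein stability (19 genes) had 10 higher and 9 lower, with a median of 0.03 that did so too (-0.12 and 0.19). Among them Gsk3b, a kinase that marks MYC for degradation, was at 15.8 ± 2.68 CPM (SD, n = 2) with PBS against 27.4 ± 7.15 CPM (SD, n = 4), and Pim2, a kinase that stabilises MYC, at 49.5 ± 2.32 and 84.1 ± 33.0 CPM. Fbxo32, another gene of this list, went the other way, at 33.0 ± 8.54 and 18.6 ± 6.43 CPM. By edgeR none in either list was called, 2 coactivators (lower) and 4 enzymes (higher) passed at an unadjusted p under 0.05, and the authors' deposited table called the enzyme genes Gsk3a and Pim1 higher.

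Targets of MLXIP and its relative MLXIPL numbered 11, with 6 higher and 5 lower, a median of 0.00 that moved between 0.04 and 0.26 when single libraries were left out and to -0.17 with scaling by library size only. By edgeR none was called, and 2 lower and 1 higher passed at an unadjusted p under 0.05, while the authors' deposited table called Hk2 higher and Tkt and Rgs16 lower. Txnip, the classic target, which restrains glucose uptake, stood at 72.0 and 94.2 CPM in PBS and at 165, 142, 70.6 and 92.1 CPM in IL-10/Fc replicates 1 to 4, with overlap. Among the IL-10/Fc libraries only, the 2 with the highest Txnip also had the highest Mlxip. In PBS, Mlxip was at 33.5 and 37.8 CPM, above IL-10/Fc replicate 2 (27.5 CPM), although Txnip was lower in PBS than in that library. A link between the levels of Mlxip and Txnip was not tested. Hk2, a hexokinase, was at 16.7 and 27.6 CPM in PBS and at 36.2, 47.4, 59.0 and 60.2 CPM in IL-10/Fc, and Rgs16, a regulator of G protein signalling, at 83.5 and 61.2 CPM and at 34.3, 33.2, 35.4 and 32.0 CPM. Both had groups that did not overlap, in opposite directions, but they were named for their small p, so this is no further evidence. Over the list, 1 was higher and 2 lower without overlap.

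**Figure D5:**
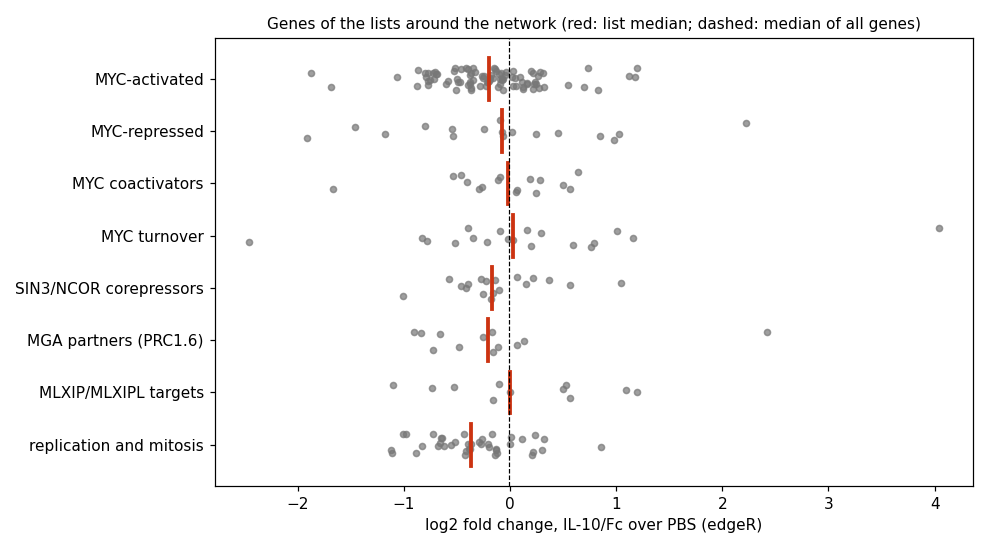
Log2 fold change of IL-10/Fc over PBS (edgeR) for single genes (grey points) of 8 lists around the network, with the list median in red and the median of all genes as a dashed line. The MYC-activated list has its median at -0.19 and the replication and mitosis list at -0.37, and single genes of every list lie on both sides of 0.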

How the data were processed

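RNA was measured in 6 Smart-Seq2 libraries, a protocol without molecular identifiers or strand marking. The authors deposited raw gene counts of every library and a table of their own comparison with log2 fold changes, p-values and adjusted p-values, a mean of normalized counts (a signal) and a Wald statistic (a score), per the file headers. TopHat2 2.1.1, Bowtie2 2.2.9, Trimmomatic, Cuffdiff, Cufflinks 2.2.1, DESeq2 and GRCm38 (mm10) are named per the submitters' processing notes. The counter was not given in the sources used here. File columns number the PBS libraries 2 and 3, and the titles (1 and 2) were followed.

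Counts were filtered with edgeR 4.0.16 (filterByExpr), scaled by TMM (factors 0.950 to 1.10) and tested across all genes with the quasi-likelihood test (robust, two-sided, group only) and Benjamini-Hochberg adjustment at 0.05. The SE is the log2 fold change over the root of F. Exon lengths came from GENCODE vM21 and matched 15865 of 15898 genes. Alternatives were DESeq2 1.42.0, limma-voom (limma 3.58.1), other scalings and filters, no robust option, a replicate block and each library left out. Chi-square over degrees of freedom between replicates was 42.7 to 123. The SD between libraries is given as the error, and no interval of counting error was computed.

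The members, lists and tests were chosen with earlier results of these data known. Named genes were all 10 members, up to 4 genes per list with the smallest p at a mean of 20 CPM or more, and the 5 most like Mxd4. Other genes named, the cell type markers Ccr7, Cd8a, Pdcd1, Havcr2, Slamf6, Csf1r, C1qa, Adgre1 and Lyz2 and the list genes that the deposited table called among them, were named after their values were seen.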

Additional observations from a re-analysis of the deposited data

Results flagged for a closer look

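Mxd3 in IL-10/Fc replicate 1, at 2.51 CPM, lay far below the other 3 libraries of its group (6.93 to 7.31 CPM), by a gap that was most of the group's whole range. Of 21 quantities examined it was the only one whose gap passed the threshold used, which chance passes in about 1 of 20 groups of 4, so about 1 is what chance gives. The same library had the lowest summed level of replication and mitosis genes, 2082 CPM, and the part of cell cycling in the Mxd3 value was not tested.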

How the results depend on the processing

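The number of genes called was 1 by edgeR's quasi-likelihood test and stayed there with DESeq2 size factors, without the count filter and with limma-voom. It was 60 with at least 20 CPM in 2 libraries and 750 with the DESeq2 Wald test. It was 0 with scaling by library size only, without the robust option and with the replicate block, where edgeR gave 2299, 1995 and 1207 genes at an unadjusted p under 0.05 (1970 as reported). Leaving out single libraries gave 0 to 16. Counting all 10 members, 1 (Mxd4) passed with the 20 CPM filter, which left Max, Mxd3, Mnt and Mga untested, and 2 (Mxd1 and Mxd4) with the DESeq2 Wald test; Mxd4 was chosen by this contrast, so its passing is no test of it. Signs turned for Myc with limma-voom (0.52), with the replicate block (0.15) and over the left-out libraries (-1.28 to 2.51), for Max over the left-out libraries (-0.31 to 0.0898), and for Mga with library size only (-0.10) and over the left-out libraries (-0.00257 to 0.19). The other 7 members kept their direction. Scaling by library size only shifted the median of all genes by -0.17. Labels do not say that replicate numbers pair the samples, same-numbered libraries deviated together at 0.0625 and 0.0148, and the block changed no call of a member. With 2 PBS libraries, low levels such as Mnt and Mxd3 and the unequal PBS pair limit what can be seen.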
